A study of Mus musculus with 9 samples.

Results

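The genes described here encode the protein parts of the spliceosome and the RNA-binding proteins that guide it. They were chosen by symbol, as every protein-coding gene of the mouse annotation whose name starts with Snrp, Sf3a, Sf3b, Prpf, Srsf or Hnrnp, or with Lsm and a number. The rule found 74 genes among 22367 protein-coding genes, with 12 Snrp, 3 Sf3a, 5 Sf3b, 13 Prpf, 11 Srsf, 18 Hnrnp and 12 Lsm genes on 18 chromosomes.

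BAP1 binding was mapped by ChIP-Seq in Ba/F3, a mouse B cell precursor line kept in medium with IL-3 from WEHI conditioned medium. In 1 sample, chromatin of wild type Ba/F3 cells was precipitated with an antibody to BAP1 itself. In the other, an antibody to the FLAG epitope was used on Ba/F3 cells that stably express murine BAP1 with a triple FLAG tag under puromycin selection, so that the tagged protein came on top of whatever BAP1 the line makes. Each immunoprecipitation was made once and both stand behind 1 deposited list of 13164 peaks, each 200 bp wide, with no height or score. Levels per sample and sequencing depth were not analysed here, and the 95% Wilson intervals below cover counting error only. The other 7 of the 9 samples of the series, which are 4 input DNA samples and 3 samples for ubiquitinated histone H2A from wild type cells and 2 BAP1 knockout lines, were not analysed here. Both arms come from 1 cell line.

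The spliceosome removes introns from pre-mRNA. It is built from small nuclear ribonucleoproteins, or snRNPs, in which a ring of Sm proteins (most Snrp genes) or of Sm-like proteins (Lsm genes) holds a U-rich small nuclear RNA. The SF3A and SF3B complexes of the U2 snRNP grip the branch point, the PRPF proteins bring in the U4/U6.U5 tri-snRNP and drive the rearrangements of the catalytic core, and SR proteins (Srsf) and hnRNPs (Hnrnp) bind exons and introns and bias which splice sites are used. BAP1 is a nuclear deubiquitinase that removes the H2AK119ub mark together with an ASXL partner, and is known to work on chromatin with the host cell factor HCF1 and with sequence-specific factors such as YY1 and FOXK proteins. A gene was called bound when the middle of a peak lay within 1 kb of any of its transcription start sites (TSSs), a distance limit that the study also used, there with the nearest TSS of its own annotation.

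The peaks of 6 genes, each from another subfamily, are printed first as examples of the sequences under the peaks. From each of these subfamilies the peak with the most different motifs was taken, and the one nearest to its TSS where several tied. The sequences are those of mouse build mm9 (NCBIM37) on the strand of the gene, read in its direction of transcription, and capitals mark matches to the motifs given after them.

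Sf3a1, chr11:4060257-4060456, plus strand: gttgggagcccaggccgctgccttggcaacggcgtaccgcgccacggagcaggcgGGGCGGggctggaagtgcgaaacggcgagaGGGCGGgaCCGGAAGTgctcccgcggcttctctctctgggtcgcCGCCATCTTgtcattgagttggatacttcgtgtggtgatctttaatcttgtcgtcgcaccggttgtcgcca
Sf3b2, chr19:5295269-5295468, minus strand: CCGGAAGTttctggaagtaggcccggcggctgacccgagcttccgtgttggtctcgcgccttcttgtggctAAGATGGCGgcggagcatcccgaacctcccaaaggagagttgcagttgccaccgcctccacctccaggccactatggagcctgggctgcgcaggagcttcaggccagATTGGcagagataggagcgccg
Prpf19, chr19:10969612-10969811, plus strand: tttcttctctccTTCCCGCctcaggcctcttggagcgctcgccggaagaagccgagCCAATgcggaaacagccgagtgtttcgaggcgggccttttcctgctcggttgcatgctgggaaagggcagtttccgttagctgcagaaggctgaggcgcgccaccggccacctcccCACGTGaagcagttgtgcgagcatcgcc
Srsf2, chr11:116714402-116714601, minus strand: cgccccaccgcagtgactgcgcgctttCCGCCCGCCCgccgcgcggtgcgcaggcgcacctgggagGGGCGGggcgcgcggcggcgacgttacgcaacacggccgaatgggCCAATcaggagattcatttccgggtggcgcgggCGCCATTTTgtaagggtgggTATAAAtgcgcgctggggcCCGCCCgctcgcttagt
Hnrnpab, chr11:51420337-51420536, minus strand: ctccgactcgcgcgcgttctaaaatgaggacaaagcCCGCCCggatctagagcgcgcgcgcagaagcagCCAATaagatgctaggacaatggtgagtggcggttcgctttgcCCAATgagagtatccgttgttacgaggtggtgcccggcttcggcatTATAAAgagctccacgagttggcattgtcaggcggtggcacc
Lsm10, chr4:125773756-125773955, plus strand: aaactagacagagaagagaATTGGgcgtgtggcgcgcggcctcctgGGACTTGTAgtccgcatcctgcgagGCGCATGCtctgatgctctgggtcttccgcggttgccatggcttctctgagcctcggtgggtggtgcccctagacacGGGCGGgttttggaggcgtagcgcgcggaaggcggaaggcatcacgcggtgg

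The motifs searched on both strands were the ETS motif CCGGAAGT, the NRF1 motif GCATGCGC, the YY1 motif AANATGGCG, the SP/KLF box GGGCGG, the NF-Y box CCAAT, the cAMP response element (CRE) TGACGTCA, the E-box CACGTG, the ZNF143/THAP11 motif TACAANTCC, the E2F motif GCGGGAA and the TATA box TATAAA. The CRE and the E-box read the same on both strands. The Srsf2 peak held 4 different motifs in 71.0% GC, among them a TATA box and several SP/KLF boxes. Lsm10 also had 4 different motifs, with an NRF1 and a ZNF143/THAP11 match. Hnrnpab joined CCAAT boxes and a TATA box. A match is a description of the letters and not evidence that a factor was there.

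Of the 74 splicing genes, 71 were bound, or 95.9% (95% interval 88.7 to 98.6). Among all protein-coding genes 8850 of 22367 were bound, which is 39.6%. The Sf3a genes (3 of 3), the Sf3b genes (5 of 5), the Prpf genes (13 of 13) and the Lsm genes (12 of 12) each had a peak at every member. The Snrp genes were bound in 11 of 12 cases, the Srsf genes in 10 of 11 and the Hnrnp genes in 17 of 18, so that no subfamily lacked a peak at more than 1 member. The small subfamilies leave wide intervals, from 43.9% upward for Sf3a and from 56.6% upward for Sf3b. Together the bound members carried 106 peaks.

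**Figure D1:**
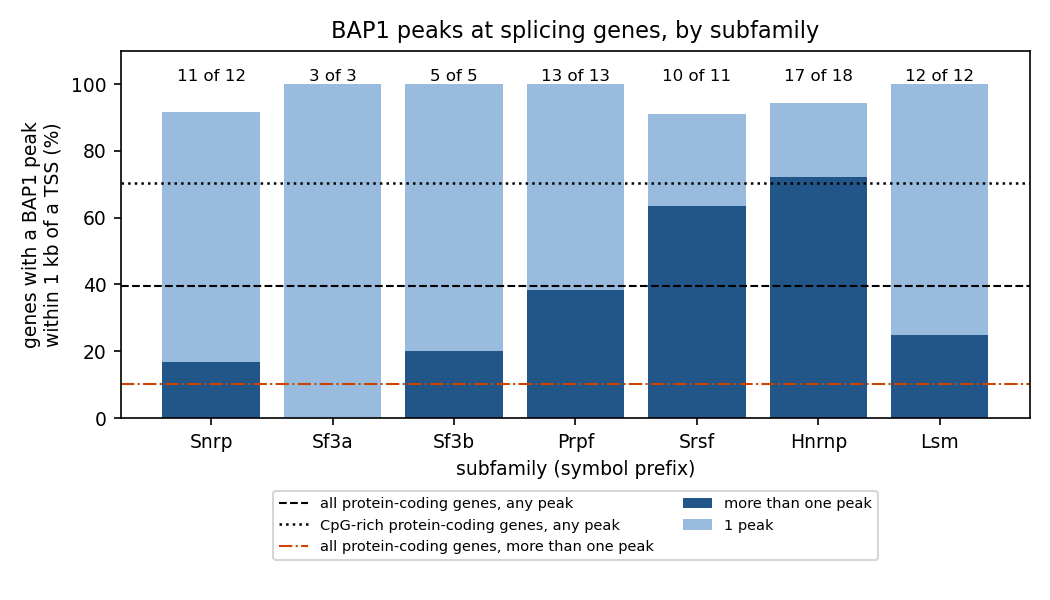
Share of genes in each subfamily with a BAP1 peak whose middle lay within 1 kb of a TSS (vertical axis, percent), split into genes with 1 peak (light) and with more than one (dark); numbers above the bars are bound genes of all genes. Every subfamily stands above the dashed line of all protein-coding genes (39.6%) and the dotted line of CpG-rich ones (70.5%), and the dark part, against 10.1% in all protein-coding genes, is tallest for Hnrnp and Srsf.

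Widely expressed genes tend to have promoters in CpG islands, and BAP1 peaks were found mostly there, so the share of bound genes was read beside promoter sequence. The CpG ratio is the number of CpG dinucleotides over that expected from the base composition, here within 500 bp on either side of the gene start. Its median was 0.842 in the splicing genes and 0.549 in all protein-coding genes. Of the 74 members, 68 had a ratio of at least 0.6, and 67 of these were bound (98.5%, interval 92.1 to 99.7). Among the 10204 protein-coding genes with such a ratio, 7189 were bound, or 70.5%. In the range from 0.6 to 0.8, all 25 members were bound beside 65.2% of protein-coding genes, and from 0.8 to 1, 30 of 31 members were bound beside 76.7%. All 12 members with a ratio of 1 or more were bound, beside 77.9% of protein-coding genes in that range. The members' share thus stood above that of all protein-coding genes of like CpG ratio in each of these ranges. Expression of the genes in Ba/F3 cells was not analysed here.

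**Figure D2:**
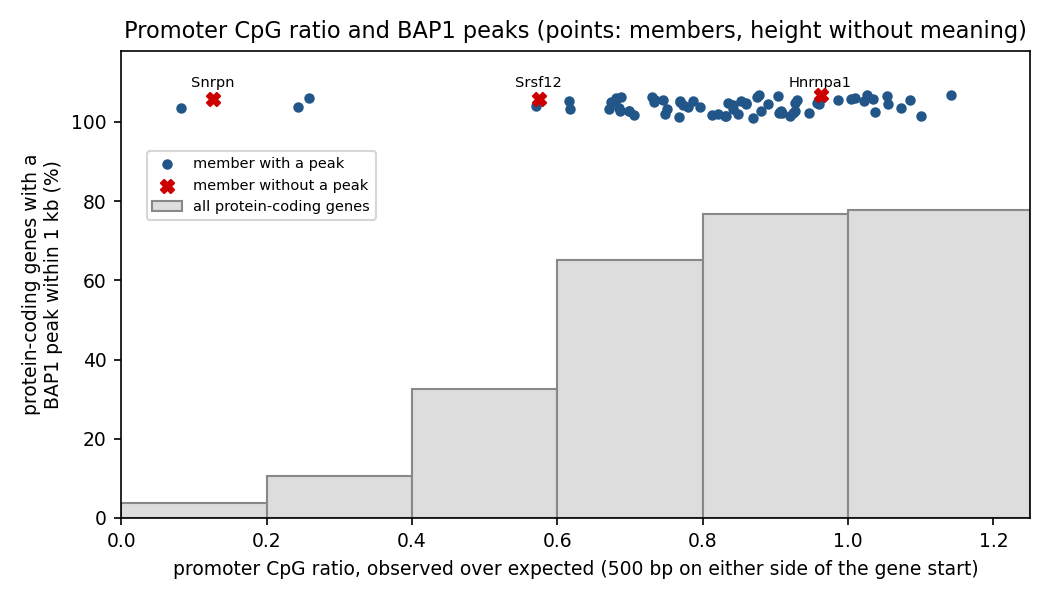
Bars give the share of all protein-coding genes with a BAP1 peak (vertical axis, percent) by promoter CpG ratio (horizontal axis, observed over expected), and points mark the ratio of each of the 74 splicing genes, drawn above the bars at a height without meaning. The bars rise from 3.86% below a ratio of 0.2 to 77.9% from 1 upward; 71 points mark bound genes and 3 crosses mark Snrpn, Srsf12 and Hnrnpa1.

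Only 6 members had a ratio under 0.6 at the annotated gene start, and 4 of these were bound, beside 13.7% of the 12163 protein-coding genes in that class. The 4 were Hnrnpm (0.083), Hnrnpf (0.244), Prpf6 (0.258) and Hnrnpl (0.570), and the peak of each nearest to a TSS lay downstream of the annotated gene start. For Hnrnpm, an hnRNP gene with 8 annotated TSSs, the first peak lay 1378 bp into the gene, at an internal TSS with a ratio of 0.870. In Hnrnpf the peaks lay 233, 6520 and 7437 bp downstream of the gene start. In Prpf6, a bridging protein of the tri-snRNP, they lay 918 and 9406 bp into the gene. In Hnrnpl the first of 3 peaks lay 647 bp in and the next at 2310 bp. Hnrnpk also had its first peak more than 1 kb into the gene, at 1140 bp, and its ratio was 0.974 at the bound TSS and 0.671 at the gene start. With only the gene start counted as TSS, 69 members were bound, and Hnrnpk and Hnrnpm were the ones lost.

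A gene was called bound at any of its TSSs, so binding was also read by the number of annotated TSSs. Protein-coding genes with 1 TSS were bound in 23.8% of cases, those with 2 to 4 in 42.7% and those with 5 or more in 65.3%. For the splicing genes the same classes gave 17 of 18, 25 of 27 and 29 of 29. The number of TSSs therefore moved with binding across the genome, for reasons that were not tested. Members with a single TSS were bound in all cases but that of Hnrnpa1.

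The members without a peak were Hnrnpa1, Srsf12 and Snrpn, and they differed in how far they were from one. Hnrnpa1, one of the most abundant hnRNPs and a repressor of many splice sites, starts at 103070945 on the plus strand of chromosome 15 and has 1 annotated TSS and a CpG ratio of 0.962. Its nearest peak, chr15:103069773-103069972, had its middle at -1072 bp, just outside the 1 kb limit, and 374 bp downstream of the TSS of Cbx5, the gene of the heterochromatin protein HP1 alpha, which starts 698 bp away on the other strand. A limit of 2 kb, or distance taken to the nearer peak edge, counted Hnrnpa1 as bound and gave 72 of 74. Just inside the limit, the farthest bound member was Hnrnpul2, an hnRNP U-like protein, with peaks at 741 and 846 bp.

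Srsf12, an SR protein with a ratio of 0.574, had its nearest peak 39327 bp away, at -80 bp from the TSS of Pnrc1. Snrpn was farther from a peak than any other member, at 580047 bp, and no peak lay within 50 kb of it. It encodes SmN, the Sm protein that replaces SmB in brain, and is an imprinted gene that only the paternal copy expresses. At its annotated gene start the CpG ratio was 0.126, among the 2 lowest of the 74. The ratio at its other annotated TSS was not taken. By contrast Snrpb, which encodes the SmB that SmN replaces, had its peak at -22 bp.

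Peaks sat close to the start of transcription and mostly on its upstream side. Taking for each bound member the peak nearest to a TSS, the median position was -39 bp (quartiles -85.5 and -8), where a negative value is upstream and each peak is placed by the TSS of the gene nearest to it, so that several peaks of a gene can refer to different TSSs. All bound protein-coding genes had a median of -32 bp (quartiles -73 and 0). The peak was upstream in 57 of 71 members (80.3%) and in 75.0% of bound protein-coding genes, and it lay within 100 bp of the TSS in 55 members (77.5%) and in 77.8% of protein-coding genes. The splicing genes thus had about the same peak position as other bound genes. Of all 106 peak middles, 52 lay upstream of the gene, 28 in an exon outside coding sequence, 23 in an intron and 3 in a coding exon.

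**Figure D3:**
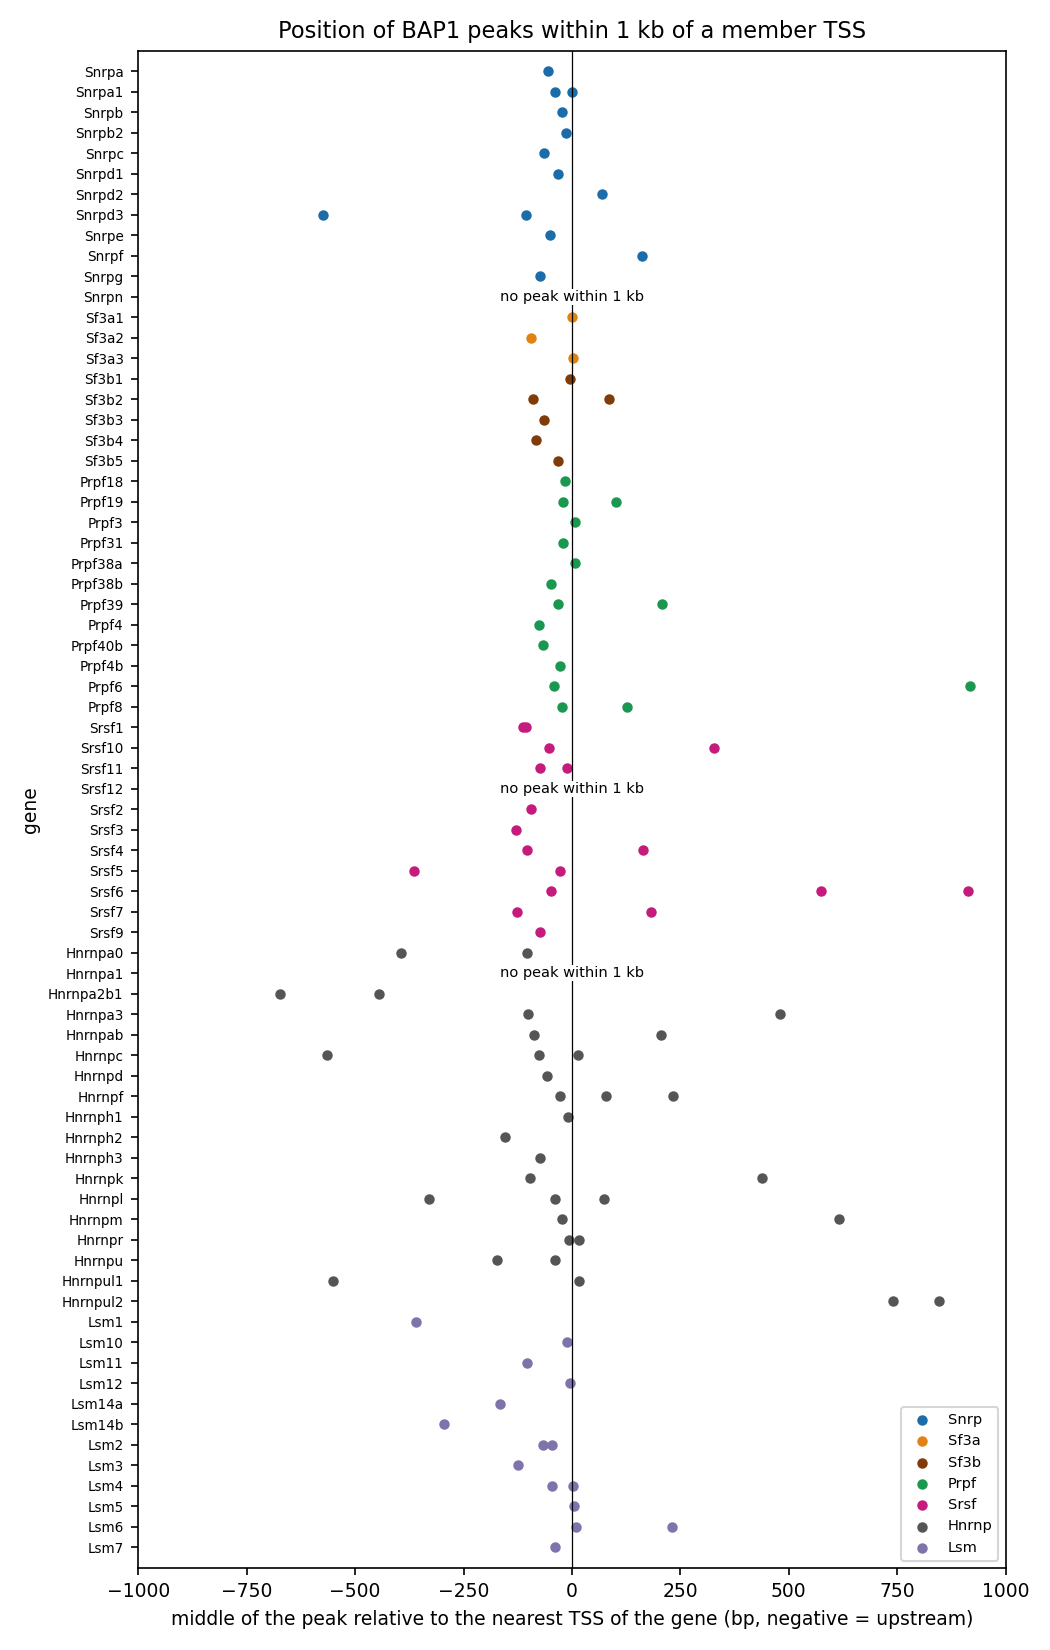
Each row is 1 of 73 splicing genes and each dot 1 of their 104 peaks, placed by the distance of its middle from the nearest TSS of the gene (horizontal axis, bp, negative values upstream), with colours for subfamilies. Dots gather just upstream of 0 in every subfamily, the Srsf genes have no nearest peak downstream, and Hnrnpa1, Srsf12 and Snrpn have no dot.

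In the Sm protein genes the peak of Snrpd1 lay at -32 bp, of Snrpe at -50 bp and of Snrpg at -73 bp. Snrpd2 (70 bp) and Snrpf (162 bp) had theirs downstream. Other Snrp genes encode proteins of single snRNPs. Snrpb2, for the U2B'' protein of the U2 snRNP, had its peak at -14 bp. The U1-A and U1-C proteins, which help to recognise the 5′ splice site, are encoded by Snrpa and Snrpc, with peaks at -55 and -64 bp. Snrpa1, which encodes the U2-A' protein, had a peak, chr7:73205330-73205529, whose middle fell on an annotated TSS (0 bp), and a second at -40 bp from another TSS. Snrpd3 was the other Snrp gene with a pair of peaks, at -106 and -575 bp. The median over the 11 bound Snrp genes was -32 bp.

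The Lsm genes fell into members of the nuclear and cytoplasmic LSM rings and more distant relatives. LSM2 to LSM8 form the ring on U6 snRNA, and LSM1 takes the place of LSM8 in the ring that promotes mRNA decay. No Lsm8 gene was among the 12 Lsm members. Lsm4 had the nearest peak of the subfamily at 2 bp, with another at -47 bp. Lsm5 (4 bp) and Lsm6 (10 bp, and a second peak at 231 bp) were also bound just downstream of the TSS, whereas Lsm2 (-45 and -67 bp), Lsm7 (-39 bp) and Lsm3 (-125 bp) were bound upstream. Lsm1 was the Lsm gene with the most distant nearest peak, at -360 bp, and the same peak lay at -22 bp from the TSS of Bag4 on the other strand. Lsm10 and Lsm11, whose products belong to the U7 snRNP that processes histone mRNA, had peaks at -11 and -103 bp. Lsm12 was bound at -5 bp. The RNA granule proteins Lsm14a and Lsm14b had peaks at -167 and -295 bp. The subfamily's median was -42 bp.

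Each Sf3a and Sf3b gene had a peak. Sf3b1, the SF3B subunit that holds the branch site helix and is often mutated in myelodysplastic syndrome, had 1 peak at -4 bp, chr1:55084226-55084425. Sf3b3, Sf3b4 and Sf3b5 were bound at -65, -83 and -33 bp. Sf3b2 had a pair of overlapping peaks at -90 and 86 bp, of which the downstream one is printed above. Sf3a1 and Sf3a3 had peaks within 3 bp of a TSS, at -1 and 3 bp, and Sf3a2 at -95 bp. None of the 3 Sf3a genes had more than one peak.

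All 13 Prpf genes were bound within 100 bp of a TSS, with a median of -24 bp. Prpf8, the large protein at the catalytic core, had peaks at -24 and 126 bp. Prpf3, Prpf4 and Prpf31, which hold the U4/U6 snRNP together and link it to U5, were bound at 8, -77 and -20 bp. Prpf19, the ubiquitin ligase of the complex that activates the spliceosome, had overlapping peaks at -21 and 101 bp. The second-step factor Prpf18 had its peak at -15 bp, the kinase Prpf4b at -28 bp, and Prpf38a and Prpf38b, homologues of a yeast tri-snRNP protein, at 6 and -49 bp. Prpf39 had peaks at -33 and 207 bp and Prpf40b 1 peak at -67 bp, both homologues of yeast U1 snRNP proteins.

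In the Srsf genes the nearest peak was upstream in 10 of 10 bound members, with a median of -84 bp. Srsf2, which binds exonic enhancers and is mutated in myeloid malignancy, had its peak at -94 bp. Srsf1 had peaks 856 bp apart, at -105 and -112 bp from different TSSs, Srsf3 had 1 peak at -128 bp and Srsf9 1 at -74 bp. Srsf7 (-127 and 181 bp), Srsf4 (-104 and 163 bp) and Srsf10 (-54 and 327 bp) each had 1 peak upstream and 1 downstream of the TSS nearest to it. Srsf5 was bound at -27 and -364 bp. Srsf11 carried its peaks 4850 bp apart, 1 at the gene start (-11 bp) and 1 at an internal TSS (-74 bp). Srsf6 had 3 peaks, at -48, 575 and 914 bp.

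Among the Hnrnp genes the nearest peak ranged from -446 bp at Hnrnpa2b1 to 741 bp at Hnrnpul2. Hnrnpr and Hnrnph1 had the peaks nearest to a TSS, at -6 and -10 bp, with a second for Hnrnpr at 16 bp. Hnrnpm was bound at -24 and 615 bp from internal TSSs, and Hnrnpc, the core hnRNP that binds uridine tracts, had 3 peaks at 15, -76 and -564 bp. Hnrnpu, a scaffold attachment factor, was bound by peaks 1259 bp apart, at -40 and -173 bp from different TSSs, and Hnrnpd, which binds AU-rich elements, at -58 bp. Hnrnph3 and Hnrnph2 had peaks at -74 and -154 bp. Hnrnpab (-88 and 205 bp), Hnrnpa3 (-102 and 480 bp) and Hnrnpk (-97 and 439 bp) had 1 peak upstream and 1 downstream of the TSS nearest to it, whereas both peaks of Hnrnpa0 were upstream (-103 and -395 bp). Hnrnpul1 had peaks at 17 and -551 bp. The 3 peaks of Hnrnpl lay at -39, 73 and -330 bp from its TSSs, and those of Hnrnpf at -27, 78 and 233 bp. Hnrnpf was the only member with a gene-distal peak inside the gene, whereas 19 of the 74 (25.7%) had a gene-distal peak within 50 kb, beside 19.8% of protein-coding genes.

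More than one peak was found at 31 of the 74 members, or 41.9%, beside 10.1% of all protein-coding genes. As a share of the bound genes these were 43.7% of members and 25.5% of protein-coding genes. The Hnrnp genes (13 of 17 bound) and the Srsf genes (7 of 10) held 20 of the 31. The others were 5 of 13 Prpf, 3 of 12 Lsm, 2 of 11 Snrp, 1 of 5 Sf3b and 0 of 3 Sf3a genes. The number of TSSs moved with this count too. With 1 TSS, 6 of 17 bound members had several peaks beside 21.8% of bound protein-coding genes. With 2 to 4 TSSs it was 11 of 25 beside 24.5%, and with 5 or more 14 of 29 beside 29.0%. Among genes with 5 or more TSSs, 11 of 16 bound Srsf and Hnrnp genes and 3 of 13 genes of the other subfamilies had several peaks.

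Most of these peaks were close neighbours. They overlapped at 8 members, by middles 105 bp apart at Hnrnpul2, 108 bp at Hnrnpr, 115 bp at Hnrnpc, 122 bp at Prpf19 and 135 bp at Lsm4. When peaks with edges within 500 bp were merged, 8 members kept more than one, or 10.8% of members beside 2.31% of all protein-coding genes. These shares are over genes with and without a peak, and 95.9% of members but 39.5% of protein-coding genes were bound after merging. Shares of the bound genes alone were not taken here. The 8 members were Hnrnpf, Hnrnpl, Hnrnpm, Hnrnpu, Prpf6, Srsf1, Srsf6 and Srsf11, with 3 to 14 annotated TSSs each. At 3 of them the peaks were far apart, by 8488 bp at Prpf6, up to 6287 bp at Hnrnpf and 4850 bp at Srsf11. How the peak caller divided broad signal into 200 bp peaks is not given in the sources used here, so a count of peaks is not a count of binding events.

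Some splicing genes had a peak that also lay near the TSS of another gene. A peak of 31 bound members also lay within 1 kb of the TSS of another annotated gene, and in 24 this was a protein-coding gene, always on the opposite strand. These 24 were 33.8% of bound members, whereas 2149 bound protein-coding genes (24.3%) shared a peak with a coding gene on the other strand. For the 31, no share over all bound protein-coding genes was taken. Where a peak is shared, the list cannot assign it to either gene. When each peak was counted only for the genes of its nearest TSS, 62 of 74 members remained bound and 35.1% of protein-coding genes. The members lost were Hnrnpa2b1, Hnrnph2, Lsm1, Lsm3, Lsm7, Sf3a2, Sf3b4, Snrpd3 and Snrpf.

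Close pairs are printed on the strand of the splicing gene, with capitals marking the bases from one TSS to the other. These 3 pairs were chosen after their values were seen, as those with short gaps inside 1 peak.

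Srsf11 and Lrrc40, chr3:157699514-157699713, minus strand: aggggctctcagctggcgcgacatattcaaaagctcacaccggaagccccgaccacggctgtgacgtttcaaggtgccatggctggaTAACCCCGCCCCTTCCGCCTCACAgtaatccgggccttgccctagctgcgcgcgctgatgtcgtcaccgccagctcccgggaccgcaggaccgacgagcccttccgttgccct
Hnrnpf and 4933440N22Rik, chr6:117857695-117857894, plus strand: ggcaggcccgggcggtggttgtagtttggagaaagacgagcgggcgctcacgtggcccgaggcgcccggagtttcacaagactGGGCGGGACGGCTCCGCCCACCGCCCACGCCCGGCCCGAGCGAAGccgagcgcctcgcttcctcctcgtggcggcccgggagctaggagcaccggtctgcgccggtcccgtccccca
Prpf31 and Tfpt, chr7:3581467-3581666, plus strand: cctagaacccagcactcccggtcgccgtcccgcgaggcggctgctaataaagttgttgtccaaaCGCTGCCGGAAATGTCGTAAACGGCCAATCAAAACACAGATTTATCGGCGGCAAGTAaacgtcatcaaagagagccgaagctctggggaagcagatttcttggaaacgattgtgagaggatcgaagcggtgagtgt

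In the first pair the TSSs of Srsf11 and Lrrc40 lay 23 bp apart and the peak middle stood 11 and 12 bp upstream of them. The gap was 44 bp between Hnrnpf and 4933440N22Rik and 56 bp between Prpf31 and Tfpt, and the capitals of the Hnrnpf pair hold several SP/KLF boxes. In 9 members both TSSs fell inside the same peak, and the share of other genes with such a peak was not taken. The other coding pairs with gaps up to 171 bp were Hnrnph2 with Gla (54 bp), Sf3a1 with Ccdc157 (62 bp), Lsm7 with 3110056O03Rik (66 bp), Hnrnpul2 with Ttc9c (68 bp), Snrpd3 with 1110038D17Rik (70 bp), Prpf38a with Orc1 (87 bp), Sf3a2 with Plekhj1 (106 bp), Hnrnpd with 4930524J08Rik (123 bp), Lsm3 with Xpc (151 bp), Prpf4 with Cdc26 (155 bp) and Srsf7 with Ttc39d (171 bp). Orc1 is a subunit of the origin recognition complex, Xpc a DNA damage sensor and Cdc26 a subunit of the anaphase-promoting complex.

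Wider pairs included Srsf2 with Mfsd11 (201 bp), Sf3b3 with Cog4 (221 bp), Lsm1 with Bag4 (382 bp), Hnrnph3 with Pbld2 (421 bp), Hnrnpa2b1 with Cbx3 (466 bp), Snrpa with BC024978 (490 bp), Hnrnpk with Rmi1 (491 bp), Snrpd2 with Qpctl (526 bp) and Prpf6 with Znf512b (935 bp). Hnrnpa2b1 and Cbx3, the gene of HP1 gamma, share the CpG island that is used in expression vectors as a ubiquitous chromatin opening element. The peaks there, at -446 and -674 bp from the nearest TSSs of Hnrnpa2b1, lay at -20 and 38 bp from TSSs of Cbx3. Hnrnpa1 and Cbx5 have the same arrangement of an hnRNP A gene and an HP1 gene, with a peak on the Cbx5 side, but there the distance to the hnRNP gene was past 1 kb. Where the peak lay at the partner's TSS, as for Hnrnpa2b1, Lsm1 and the second peak of Prpf6 (17 bp from a TSS of Znf512b), the binding stood nearer to the neighbour than to the splicing gene.

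Peaks of the splicing genes were as rich in G and C as those of other genes, with a median of 67.5% GC in the 106 peaks and 67.5% in the 9805 gene-proximal peaks of protein-coding genes, beside 65.0% in all peaks. Their median CpG ratio, over the peak itself, was 1.01, beside 0.877 and 0.816. Medians by subfamily ran from 61.3% GC in Sf3b to 70.5% in Hnrnp.

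A match to at least 1 of the 10 motifs was found in 95 of the 106 member peaks (89.6%), in 88.0% of gene-proximal peaks of protein-coding genes and in 80.9% of all peaks. The SP/KLF box was the most frequent, in 68 peaks (64.2%), beside 69.1% of gene-proximal coding peaks and 59.5% of all. The NF-Y box CCAAT followed in 39 peaks (36.8%, beside 30.0% and 28.5%). The ETS motif was in 15 peaks (14.2%, beside 9.66% and 7.85%), the E-box in 11 (10.4%, beside 8.10% and 7.04%) and the YY1 motif in 9 (8.49%, beside 6.23% and 4.90%). The rarer motifs were E2F in 8 peaks (7.55%, beside 7.17% of gene-proximal coding peaks), CRE in 5 (4.72%, beside 3.35%), the TATA box in 5 (4.72%, beside 2.23%), NRF1 in 4 (3.77%, beside 5.86%) and ZNF143/THAP11 in 2 (1.89%, beside 2.21%). For each of the 10 motifs the member share lay within 6.82 percentage points of that of gene-proximal coding peaks, and the NF-Y box differed by most. Matches of different motifs shared bases in 3 of the 106 peaks.

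**Figure D4:**
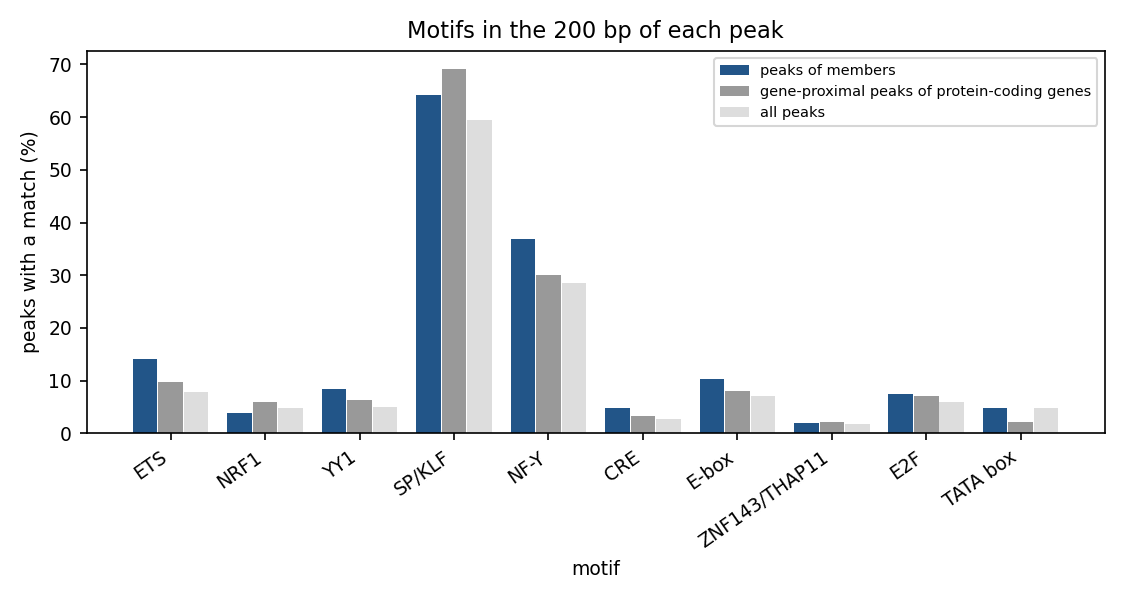
Share of peaks with at least 1 match to each motif in their 200 bp (vertical axis, percent) for the 106 peaks of splicing genes (blue), the 9805 gene-proximal peaks of protein-coding genes (grey) and all 13164 peaks (light grey). The SP/KLF box (64.2, 69.1 and 59.5%) and the NF-Y box (36.8, 30.0 and 28.5%) stand above the other motifs in all 3 groups.

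Counts per subfamily are small and were not tested. SP/KLF boxes were in 14 of 15 Lsm, 14 of 18 Srsf, 23 of 33 Hnrnp, 8 of 18 Prpf, 6 of 13 Snrp, 2 of 6 Sf3b and 1 of 3 Sf3a peaks, beside 69.1% of gene-proximal coding peaks. All 4 genes with an NRF1 match, Lsm2, Lsm10, Srsf7 and Srsf11, were Lsm or Srsf genes. The E-box occurred at 4 Prpf genes (Prpf3, Prpf19, Prpf39 and Prpf40b), 4 Hnrnp genes (Hnrnpa3, Hnrnpd, Hnrnpf and Hnrnpm) and Snrpa, whereas the CRE was at Snrpa, Snrpg, Hnrnpu, Lsm2 and Lsm12. Motifs also differed in position. The 9 YY1 matches had a median position of 32.5 bp and 6 of them lay downstream of the TSS. The 5 NRF1 matches lay between -77 and -36 bp and the 5 CRE matches between -170 and -9 bp, all upstream. The 8 E2F, 5 TATA box and 2 ZNF143/THAP11 matches were also all upstream. Match positions in peaks of other genes were not taken, and differences between motifs were not tested. The NRF1 matches of Srsf11, at -45 and -47 bp on opposite strands, overlap. Overlapping peaks can also hold the same match, as for the E-box of Prpf19 (54 bp) and the ETS motif of Sf3b2 (-10 bp). Counts of matches and of peaks with a match are therefore not counts of separate sites. The YY1 genes were Sf3a1, Sf3b2, Prpf38b, Srsf2, Srsf5, Srsf10, Hnrnpl, Lsm7 and Lsm12. In the sequences printed above the YY1 match of Sf3a1 and Srsf2 is on the opposite strand and that of Sf3b2 on the strand of the gene.

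Other genes of the splicing machinery were read in the same way. They were listed by function, except the Snrnp genes, which were taken by symbol prefix. Of 94 genes in 8 lists, 92 were bound (97.9%), beside 39.6% of all protein-coding genes, and their median peak position was -13 bp. Every gene was bound among the 7 U snRNP proteins with symbols starting Snrnp, the 13 U2AF, branch point and U1-associated factors, the 9 tri-snRNP and recycling factors, the 9 exon junction complex factors, the 11 Sm ring assembly factors and the 15 other hnRNP-like RNA-binding proteins. The Prp19-associated and catalytic-step factors had 18 of 19, without Aqr, an intron-binding helicase whose nearest peak was 14468 bp away. The SR-related proteins and SR protein kinases had 10 of 11, without Srpk3, a kinase of muscle, at 8996 bp. The CpG ratio at the gene start was 0.174 for Aqr and 0.135 for Srpk3. Of the 9 list genes under 0.6, 7 were bound, among them Clk4 (0.102) and Rbm17 (0.188). Binding was scored at any TSS, of which Clk4 has 13 and Rbm17 6, and ratios at their bound TSSs were not taken. Whether the ratio bears on the missing peaks was not tested. More than one peak was found at 23 of the 94 genes (24.5%), beside 10.1% of all protein-coding genes. Of the bound genes alone these were 23 of 92 (25%), beside 43.7% of bound members and 25.5% of bound protein-coding genes.

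Splicing regulators that are expressed in few tissues were listed as a contrast. Of 18 such genes 1 was bound (5.56%), beside 39.6% of all protein-coding genes and 70.5% of those with a CpG ratio of at least 0.6. Such a ratio was found in 12 of the 18, and their median ratio was 0.661. The list was chosen with earlier results of these data known. Expression in Ba/F3 cells was not analysed, and the reason for the low share was not tested. The bound gene was Ptbp2, the neuronal paralogue of Ptbp1, with a peak at 518 bp, which a limit of 500 bp would leave out. Without a peak were the neuronal factors Nova1, Nova2, Rbfox1, Rbfox3, Elavl2, Elavl3, Elavl4, Celf3, Celf4, Celf5, Srrm4 and Khdrbs2, the epithelial factors Esrp1 and Esrp2, the muscle factors Rbm20 and Rbm24, and Khdrbs3. Nova1 (0.969), Khdrbs3 (0.942) and Celf4 (0.879) had ratios above the median of the splicing genes of 0.842, and their nearest peaks lay 2549601, 139622 and 85715 bp away. The median distance to the nearest peak was 69050 bp over these 18 genes and 31.5 bp over the 94 genes of the other lists, bound or not.

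**Figure D5:**
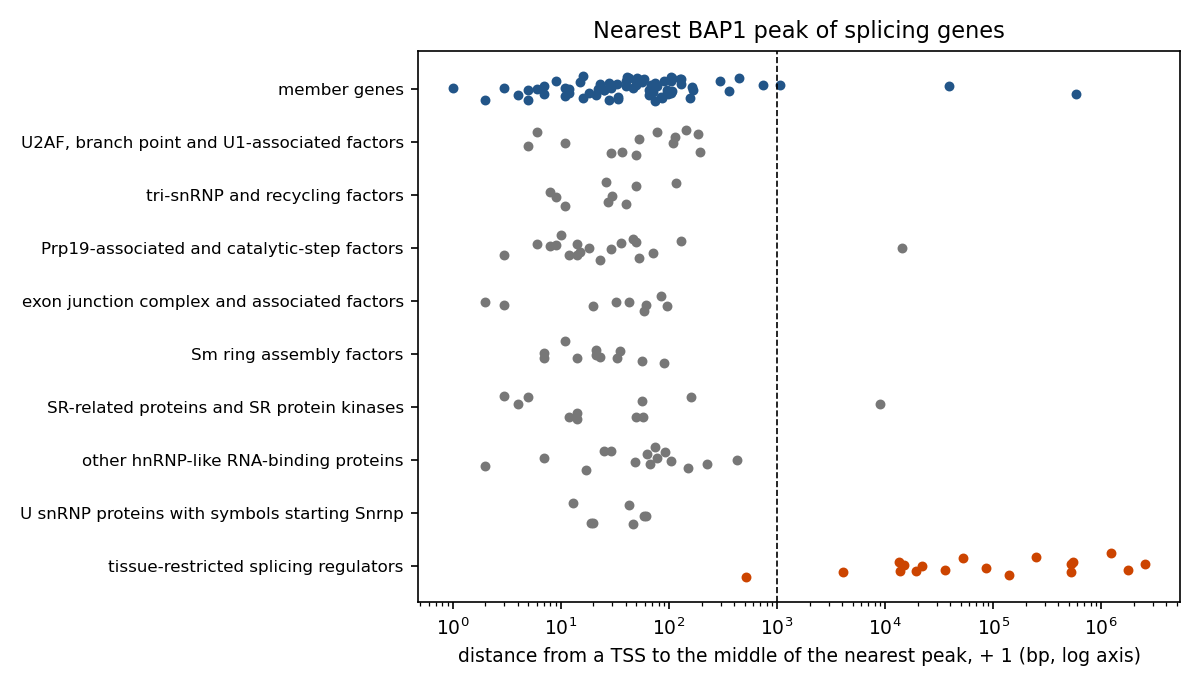
Distance from a TSS to the middle of the nearest BAP1 peak, plus 1 bp (horizontal axis, log scale), for the 74 splicing genes (blue), the genes of 8 other splicing lists (grey) and 18 tissue-restricted regulators (orange), with 1 point a gene and a dashed line at 1 kb. The blue and grey points stand left of the line but for Hnrnpa1, Srsf12, Snrpn, Aqr and Srpk3, and the orange points right of it but for Ptbp2.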

How the data were processed

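ChIP-Seq of BAP1 was made by the study in Ba/F3 cells with an anti-BAP1 antibody (wild type cells, 1 sample) and an anti-FLAG antibody (cells with triple-FLAG-tagged BAP1, 1 sample). The authors mapped paired-end reads to mm9 with Bowtie 1.0.0 and called peaks against input DNA with MACS, version 1.4.2 per the labels. The deposited file holds 1 list of peak starts and ends in bp, with no score. Neither the calling threshold nor how the 2 samples were joined into 1 list is given in the sources used here, and a stricter threshold would lower the counts. The depth of the samples was not analysed here.

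Peaks were placed on GENCODE M1 (NCBIM37, which is mm9; 37273 genes without those of the mitochondrion) by the distance of their middle to every annotated TSS. Multiple promoters, neighbouring genes, CpG ratio (500 bp on either side) and 10 motifs were taken from the genome. No tests were run over genes. Counts stand beside those of all protein-coding genes, with 95% Wilson intervals. The genes, lists and motifs were chosen with earlier results of these data known. All members enter the counts, but values of 1 gene and 1 peak sequence are not reported here. Values were given for each member without a peak, with more than one, or with a peak shared with a coding gene, and for the nearest of each subfamily, and the remaining members were added to these. Python 3.11.15, numpy 2.4.6, pandas 2.3.3, scipy 1.17.1, pyfaidx 0.9.0.4 and matplotlib 3.10.9 were used, and the scripts were tested on simulated peaks and motifs. The alternatives are given in the closing section.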

Additional observations from a re-analysis of the deposited data

How the results depend on the processing

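The count of bound members stayed between 55 and 72 of 74 in 9 alternatives. It was 55 where the peak had to cover the TSS base, when 30.7% of protein-coding genes were bound. The share of all protein-coding genes with a peak was 38.6% with a limit of 500 bp, 40.4% with 2 kb, 42.5% with 5 kb, 37.5% with 1 TSS per gene and 35.1% with each peak given to its nearest TSS. With 1 TSS per gene the median peak position of members was -22 bp in place of -39 bp. The median CpG ratio of members was 0.908 with 250 bp on either side of the gene start and 0.732 with 1000 bp. Merging peaks within 500 bp left 8 members with more than one peak in place of 31. Of 36 recomputed values of the main results, 26 stayed within the counting interval, or within 1.5 times for counts. Shared peaks, peaks with any motif and the pooled count of the other lists were among these. The 1 bound gene of the tissue-restricted list was lost at 500 bp (0 of 18), and single motifs moved with the width searched. YY1 was in 3, 9 and 17 member peaks over 100, 200 and 400 bp, beside 2.80, 6.23 and 9.63% of gene-proximal coding peaks.

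No paired analysis was possible because both immunoprecipitations stand behind 1 list without values per sample. No sample was left out for the same reason. The list gives no depth, peak height or signal of each antibody, and these, like binding below the caller's threshold, were not analysed here.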

Other observations

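The RNA parts of the spliceosome were looked at after the values of the protein genes were seen. Of 1423 annotated snRNA genes 48 had a peak within 1 kb (3.37%), but most annotated copies are repeats of a few sequences and many are pseudogenes, and how reads on near-identical copies were placed is not given in the sources used here. The genes named U1, U2, U4 and U5 were bound in 23 of 310 cases (7.42%) and those named U6 in 17 of 936 (1.82%). Those of the minor spliceosome (U11, U12, U4atac and U6atac) were bound in 5 of 40 cases (12.5%). Genes named U7 were bound in 1 of 116 (0.862%). Of the 23 bound U1, U2, U4 and U5 genes, the nearest peak was upstream in 17, with a median over all 23 of -146 bp beside -39 bp in the 71 bound protein genes, and at 19 no protein-coding TSS lay within 1 kb of the nearest peak. U5 was bound at 6 of 10 annotated copies, beside 4.85% of U1, 9.80% of U2 and 4.65% of U4 genes. Differences between these classes were not tested.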
